A study of Rattus norvegicus with 12 samples.

Results

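The genes described here encode the enzymes that burn fatty acids and feed acetyl groups through the citrate cycle: 38 genes, from carnitine palmitoyltransferase through the steps of β-oxidation and the citrate cycle to the pyruvate dehydrogenase complex and its kinases. They were chosen by name, as probe sets whose only gene symbol on the array's platform is one of the 38, taking the probe set with the highest mean where a symbol had several. All 38 were found among the 18166 genes that could be tested, each with 1 probe set, and no filter on low values was applied. The denervated group was 6 samples of urinary bladder taken 10 days after surgery in which the ganglia of the pelvic nerve were frozen on both sides. The sham group was 6 samples of bladder taken after surgery without freezing. All 12 samples came from female Sprague Dawley rats, about 3 months old, and each was read on 1 array. The values are log2 expression values that the authors made by RMA, a method that corrects background, equalises the arrays and combines the probes of a probe set.

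Fatty acids enter the mitochondrion as carnitine esters and are shortened there in repeated rounds of dehydrogenation, hydration, a further dehydrogenation and thiolysis. Each round passes electrons to the electron transfer flavoprotein and releases acetyl-CoA, which citrate synthase joins to oxaloacetate at the entry of the citrate cycle. Carbohydrate enters the same cycle through the pyruvate dehydrogenase complex, which the pyruvate dehydrogenase kinases switch off. Smooth muscle of the bladder wall and the urothelium that lines it both depend on oxidative metabolism.

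Array medians over the tested genes lay between 6.80 and 6.86. Denervated replicate 2 was unlike the rest: its score on the first principal component over all genes was -5.84, whereas the 5 remaining denervated scores ran from 25.9 to 42.5 and the sham scores from -30.2 to -22.5. Results are therefore also given without it. The labels call the tissue almost wholly smooth muscle. The smooth muscle myosin Myh11 had medians of 12.64 in denervated and 13.14 in sham bladders, but the uroplakin Upk1a, a membrane protein of the urothelium, also had medians of 12.07 in denervated and 12.70 in sham bladders, so urothelium was in the samples. Whether each array stands for its own animal is not stated, so the p-values measure the spread between these samples, which may be in part technical.

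After denervation 25 of the 38 enzyme genes were called lower and 0 higher. A gene is called where its adjusted p in limma, fitted and Benjamini-Hochberg adjusted over all 18166 genes, is under 0.05. Among all genes tested, 16.9% were called lower and 11.9% higher, against 65.8% lower and 0 higher among the enzymes. The enzymes are bright genes, 36 of them above the median gene, and among all genes above the median gene 25.9% were called lower. The median change over the 38 genes was -0.27 on the log2 scale, against -0.04 over all genes. Of the 38 changes 37 were below 0, against 10436 of 18166 over all genes. For 19 of the 38 every denervated value was below every sham value, against 7.59% of all genes and 12.6% of those above the median gene. For 0 of the 38 every denervated value was above every sham value, against 5.76% of all genes. The falls were small. They ran from 11.9% for citrate synthase (Cs) to 49.5% for the mitochondrial isocitrate dehydrogenase Idh2, and 4 genes, Idh2, Suclg2, Pdhb and Acadm, were also called lower by limma's treat, which tests for a change beyond 1.2-fold and called 2.73% of all genes lower. Without denervated replicate 2, 27 of the 38 were called lower and 0 higher, with a median of -0.30. Calls rose over all genes too, with 3661 of the 18166 called lower without this array, against 3063 with all 12. Because whole bladder was measured, fewer cells of a type and less RNA per cell cannot be told apart.

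**Figure D1:**
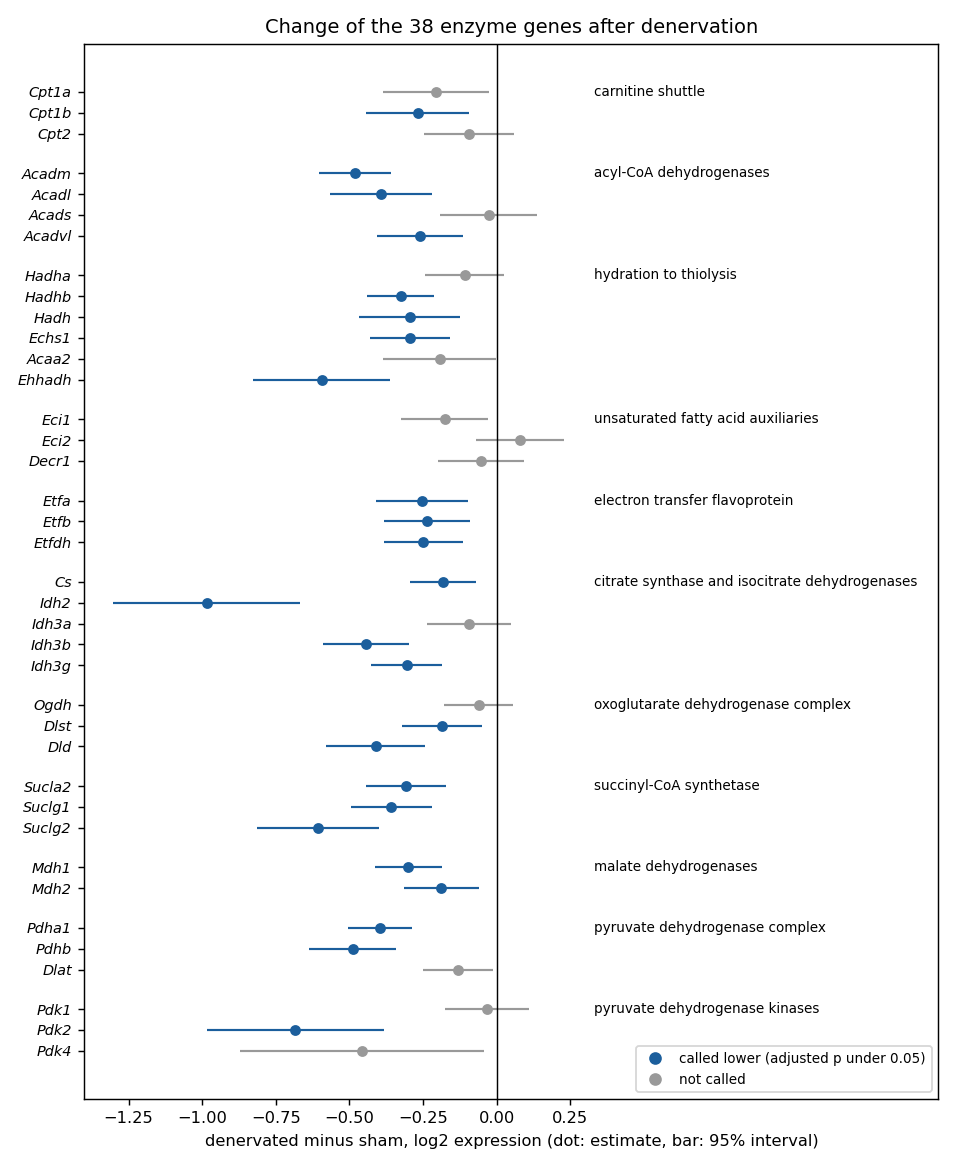
Denervated minus sham on the log2 scale for each of the 38 enzyme genes, ordered by step, with the limma estimate as a dot and its 95% interval as a bar. The 25 genes called lower are blue and the 13 not called are grey, and Idh2 has the largest fall at -0.98.

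Promoter windows are shown for the 4 genes that passed the test against a 1.2-fold change and for Hadha and Hadhb, whose windows overlap. RefSeq windows of assembly GRCr8, from 250 bases before to 50 bases after the annotated start, were held for 33 of the 38 genes. Sequences run 5′ to 3′ on the gene's strand. Capitals mark a TGACGTCA palindrome in Acadm, an AGGTCA in Pdhb and the 200 bases that Hadha and Hadhb share in opposite orientation, and the windows of Idh2 and Suclg2 have none because none of the motifs searched was in them.
Idh2 (chr1:143467199-143467498, minus strand): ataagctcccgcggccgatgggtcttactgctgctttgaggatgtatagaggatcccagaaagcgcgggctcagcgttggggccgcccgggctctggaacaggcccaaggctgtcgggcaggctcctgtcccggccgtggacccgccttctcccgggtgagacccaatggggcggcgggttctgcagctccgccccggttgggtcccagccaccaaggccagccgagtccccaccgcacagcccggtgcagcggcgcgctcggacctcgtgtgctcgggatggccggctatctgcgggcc
Suclg2 (chr4:129893888-129894187, minus strand): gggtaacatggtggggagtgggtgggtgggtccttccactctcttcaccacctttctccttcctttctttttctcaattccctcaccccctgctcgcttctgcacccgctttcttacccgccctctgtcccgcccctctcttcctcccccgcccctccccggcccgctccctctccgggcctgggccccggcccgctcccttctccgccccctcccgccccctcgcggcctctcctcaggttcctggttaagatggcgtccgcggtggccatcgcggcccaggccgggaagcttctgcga
Acadm (chr2:245542815-245543114, minus strand): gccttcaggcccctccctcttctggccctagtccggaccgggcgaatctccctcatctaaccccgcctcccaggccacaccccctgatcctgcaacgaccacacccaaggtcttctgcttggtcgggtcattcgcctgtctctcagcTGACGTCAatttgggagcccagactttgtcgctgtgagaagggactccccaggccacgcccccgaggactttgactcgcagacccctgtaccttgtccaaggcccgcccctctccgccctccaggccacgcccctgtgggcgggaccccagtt
Pdhb (chr15:19182539-19182838, plus strand): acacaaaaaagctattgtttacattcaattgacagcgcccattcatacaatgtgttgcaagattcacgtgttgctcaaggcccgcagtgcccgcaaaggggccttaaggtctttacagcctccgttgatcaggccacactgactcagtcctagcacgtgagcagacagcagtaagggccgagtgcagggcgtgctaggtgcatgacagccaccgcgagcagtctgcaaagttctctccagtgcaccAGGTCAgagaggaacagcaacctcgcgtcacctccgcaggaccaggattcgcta
Hadha (chr6:31907551-31907850, plus strand): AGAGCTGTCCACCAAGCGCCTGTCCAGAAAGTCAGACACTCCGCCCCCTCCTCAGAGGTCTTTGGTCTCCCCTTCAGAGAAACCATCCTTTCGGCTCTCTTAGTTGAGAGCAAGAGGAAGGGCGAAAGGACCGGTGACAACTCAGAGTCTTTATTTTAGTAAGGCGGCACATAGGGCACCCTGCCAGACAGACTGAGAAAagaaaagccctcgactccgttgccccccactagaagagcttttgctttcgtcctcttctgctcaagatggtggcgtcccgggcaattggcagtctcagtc
Hadhb (chr6:31907451-31907750, minus strand): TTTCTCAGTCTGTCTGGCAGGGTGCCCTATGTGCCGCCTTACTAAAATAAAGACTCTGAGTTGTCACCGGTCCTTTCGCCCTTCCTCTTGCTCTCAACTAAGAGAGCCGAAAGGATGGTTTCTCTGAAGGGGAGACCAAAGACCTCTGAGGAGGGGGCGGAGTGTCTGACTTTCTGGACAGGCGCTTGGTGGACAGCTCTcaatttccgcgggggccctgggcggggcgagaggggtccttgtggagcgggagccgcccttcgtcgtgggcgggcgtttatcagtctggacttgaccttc

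Exact matches to 6 motifs were looked for on both strands of these windows. The estrogen-related receptor motif TCAAGGTCA was in 0 of 33 member windows and in 0.433% of all 33469 windows (0.275% of the 14564 windows of genes tested here). The direct repeat of the PPAR and RXR receptors, AGGTCA given once more after any 1 base, was in 0 of 33 and in 0.0538% of all windows (0.0343% of those of tested genes), and the NRF1 palindrome (GCGC on each side of AT) in 0 of 33 and in 0.852% of all windows (1.27% of those of tested genes). The shorter AGGTCA, which lies inside both receptor motifs, was in 9 windows (27.3%), those of Acadvl, Hadhb, Echs1, Eci1, Eci2, Idh3g, Mdh1, Pdhb and Dlat, against 16.2% of all windows and 13.4% of the windows of tested genes. The ETS motif CCGGAAGT was in 3 windows (9.09%), those of Cpt2, Dlst and Mdh2, against 3.81% of all windows and 5.74% of those of tested genes. The CREB palindrome TGACGTCA was also in 3, those of Acadm, Ogdh and Mdh2, against 1.83% of all windows and 2.42% of those of tested genes. With 33 windows such shares are coarse, and a match is not shown to be a bound site. For motifs this rare among all windows, 0 of 33 says little. The lack of an exact match does not show the lack of a site.

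Of the 19 genes of fatty acid oxidation 11 were called lower (57.9%) and 8 were not called, with a median change of -0.25. Of all genes tested 16.9% were called lower, and 25.9% of those above the median gene. At the entry step 1 of 3 genes was called. Cpt1a, the liver-type carnitine palmitoyltransferase of the outer membrane and the gate of the pathway, had a lowest, median and highest value of 9.37, 9.79 and 9.88 in denervated bladders, against 9.85, 9.94 and 10.05 in sham bladders. Of its 6 denervated values 5 lay below every sham value, and the change of -0.21 ± 0.08 (SE, n = 6 per group) was not called (adjusted p = 0.0806, 95% interval -0.38 to -0.03). It was called after centring each array on its median (adjusted p = 0.0455) and by the exact rank-sum test (0.0387). Cpt1b, the muscle-type enzyme of the same step, stood at 5.90, 5.98 and 6.37 in denervated bladders, against 6.20, 6.29 and 6.42 in sham bladders. Its highest denervated value, 6.37, was that of replicate 2. Cpt1b fell by 0.27 on the log2 scale, or 17.0% (adjusted p = 0.0248). It was a dim gene, below the median gene of 6.84, and its call was lost without denervated replicate 1 (adjusted p = 0.0545) or 5 (0.0580), without sham replicate 5 (0.0544) or 6 (0.0571), and with the exact rank-sum test (0.0850). Cpt2, which releases the acyl groups inside the mitochondrion, was not called at -0.09 (interval -0.25 to 0.06).

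The acyl-CoA dehydrogenases, which start each round and differ in the chain length they accept, were called lower in 3 of 4 cases. That is 75%, against 16.9% of all genes. Acadm, the medium-chain enzyme, had values of 8.47, 8.55 and 8.64 (lowest, median and highest) in denervated bladders, against 8.94, 9.00 and 9.16 in sham bladders. The groups were well separated, and Acadm fell by 0.48 ± 0.06 on the log2 scale, or 28.3% (adjusted p = 0.000129). Acadl, the long-chain enzyme, had 10.01, 10.32 and 10.47 in denervated bladders, against 10.58, 10.65 and 10.73 in sham bladders. It too fell without overlap, by 23.8% (-0.39 ± 0.08, adjusted p = 0.00283). Acadvl, for very long chains, fell by 16.6% (adjusted p = 0.0109), also without overlap. Acads, the short-chain enzyme, was not called at -0.03 (interval -0.19 to 0.14).

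The middle steps of the round showed a split between partners. Hadhb, the β-subunit of the mitochondrial trifunctional protein, which carries the thiolase, stood at 9.05, 9.18 and 9.24 in denervated bladders, against 9.43, 9.48 and 9.57 in sham bladders. It fell by 20.2% with no overlap (-0.33 ± 0.05, adjusted p = 0.000705). Hadha, the α-subunit with the hydratase and dehydrogenase, changed by -0.11 and was not called (adjusted p = 0.224, interval -0.24 to 0.03). Hadh, the dehydrogenase for shorter chains, fell by 18.5% (-0.30, adjusted p = 0.0130), and Echs1, the short-chain hydratase, by 18.5% as well (-0.30, adjusted p = 0.00362). The thiolase Acaa2 was not called at -0.19 (adjusted p = 0.127), and its sham values ran from 9.10 to 9.68, a range wider than that of the denervated values, 9.14 to 9.41. Without sham replicate 3, which had the value of 9.10, Acaa2 was called at -0.26 (adjusted p = 0.0206). Ehhadh, the bifunctional enzyme of peroxisomal β-oxidation, fell more than any other gene of fatty acid oxidation among the 38. Its values were 6.26, 6.69 and 6.89 in denervated bladders, against 7.03, 7.19 and 7.51 in sham bladders, a fall of 33.8% without overlap (-0.59 ± 0.11, adjusted p = 0.00143).

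None of the 3 auxiliary enzymes that handle the bonds of unsaturated fatty acids was called in the limma fit used for the main results. The mitochondrial isomerase Eci1 stood at -0.18 (adjusted p = 0.0710), and was called without denervated replicate 2 (-0.20, adjusted p = 0.0328) or sham replicate 5 (-0.21, 0.0439). With all 12 arrays it was called without the dimmest 25% of genes (adjusted p = 0.0487) and with array weights (0.0468). The dienoyl-CoA reductase Decr1 stood at -0.05 (interval -0.20 to 0.09). The isomerase Eci2, which is found in peroxisomes as well, was the only one of the 38 genes above 0, at 0.08 (interval -0.07 to 0.23, adjusted p = 0.438). All 3 genes of the electron transfer flavoprotein system fell by similar amounts. Etfa, the α-subunit, had 8.59, 8.90 and 9.02 in denervated bladders, against 9.03, 9.15 and 9.18 in sham bladders, and fell by 16.1% (-0.25 ± 0.07, adjusted p = 0.0180). Etfdh, the membrane enzyme that hands the electrons on to ubiquinone, had 8.75, 8.94 and 9.02 in denervated bladders, against 9.05, 9.18 and 9.25 in sham bladders, and fell by 15.8% (-0.25 ± 0.06, adjusted p = 0.00921). For neither did the groups overlap, though the highest denervated value came close to the lowest sham value. Etfb, the β-subunit, fell by 15.1% with overlapping groups (adjusted p = 0.0188).

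Of the 13 genes of the citrate cycle 11 were called lower (84.6%) and 2 were not called, with a median change of -0.31. The share called lower was 16.9% of all genes and 25.9% of those above the median gene. Citrate synthase (Cs), often used as a measure of mitochondrial content, had a lowest, median and highest value of 9.76, 9.85 and 9.90 in denervated bladders, against 9.95, 10.03 and 10.12 in sham bladders. Its groups did not overlap, and the fall of 11.9% (-0.18 ± 0.05, adjusted p = 0.0176) was the smallest among the 25 called genes. Idh2, the mitochondrial isocitrate dehydrogenase that reduces NADP, had the largest fall of the 38. It stood at 9.54, 9.79 and 10.62 in denervated bladders, against 10.74, 10.90 and 10.95 in sham bladders. The value of 10.62 was that of denervated replicate 2, and the other 5 ran from 9.54 to 9.92. Idh2 fell by 49.5% (-0.98 ± 0.15, adjusted p = 0.000454), and by 1.13 on the log2 scale without denervated replicate 2.

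The NAD-dependent isocitrate dehydrogenase, the enzyme of the cycle proper, is built from 3 kinds of subunit. Idh3b, a regulatory subunit, stood at 10.05, 10.25 and 10.48 in denervated bladders, against 10.64, 10.68 and 10.76 in sham bladders, and fell by 26.4% without overlap (-0.44 ± 0.07, adjusted p = 0.000541). Idh3g, the other regulatory subunit, fell by 19.1% without overlap (-0.31, adjusted p = 0.00147). Idh3a, the catalytic subunit, was not called at -0.09 (interval -0.24 to 0.05).

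In the oxoglutarate dehydrogenase complex Ogdh, the decarboxylating subunit, was not called at -0.06 (interval -0.18 to 0.06). Dld, the dihydrolipoamide dehydrogenase that this complex shares with the pyruvate dehydrogenase complex, had 9.40, 9.57 and 9.86 in denervated bladders, against 9.95, 10.01 and 10.14 in sham bladders. It fell by 24.8% without overlap (-0.41 ± 0.08, adjusted p = 0.00180). Dlst, the succinyltransferase core, had 8.70, 8.86 and 9.04 in denervated bladders, against 8.98, 9.07 and 9.13 in sham bladders. The groups overlapped, and its call (-0.19 ± 0.06, adjusted p = 0.0413) was lost without denervated replicate 1, 3, 4 or 5 or sham replicate 1, 3, 4, 5 or 6, with adjusted p of 0.0655 to 0.0843, and after a further quantile normalization (0.0577).

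All 3 genes of succinyl-CoA synthetase, the step of the cycle that makes a nucleoside triphosphate directly, fell without overlap. Suclg2, the β-subunit that makes GTP, stood at 9.44, 9.62 and 10.12 in denervated bladders, against 10.21, 10.29 and 10.34 in sham bladders. Again the highest denervated value, 10.12, was that of replicate 2, with the other 5 between 9.44 and 9.68. Suclg2 fell by 34.3% (-0.61 ± 0.10, adjusted p = 0.000666). Suclg1, the α-subunit common to both forms, had 9.15, 9.23 and 9.39 in denervated bladders, against 9.50, 9.58 and 9.76 in sham bladders, and fell by 21.9% (-0.36 ± 0.06, adjusted p = 0.00130). Sucla2, the β-subunit that makes ATP, fell by 19.2% (-0.31, adjusted p = 0.00280).

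Both malate dehydrogenases were called. Mdh1, the cytosolic enzyme of the malate-aspartate shuttle, had 10.31, 10.42 and 10.50 in denervated bladders, against 10.63, 10.72 and 10.75 in sham bladders, and fell by 18.8% without overlap (-0.30 ± 0.05, adjusted p = 0.00118). Mdh2, the mitochondrial enzyme, had 9.98, 10.15 and 10.17 in denervated bladders, against 10.16, 10.32 and 10.38 in sham bladders. It fell by 12.2% with overlap (-0.19 ± 0.06, adjusted p = 0.0288). Its call was lost without denervated replicate 4 (adjusted p = 0.0666) or sham replicate 3 (0.0563), 4 (0.0651), 5 (0.0648) or 6 (0.0549), and after a further quantile normalization (0.0521).

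**Figure D2:**
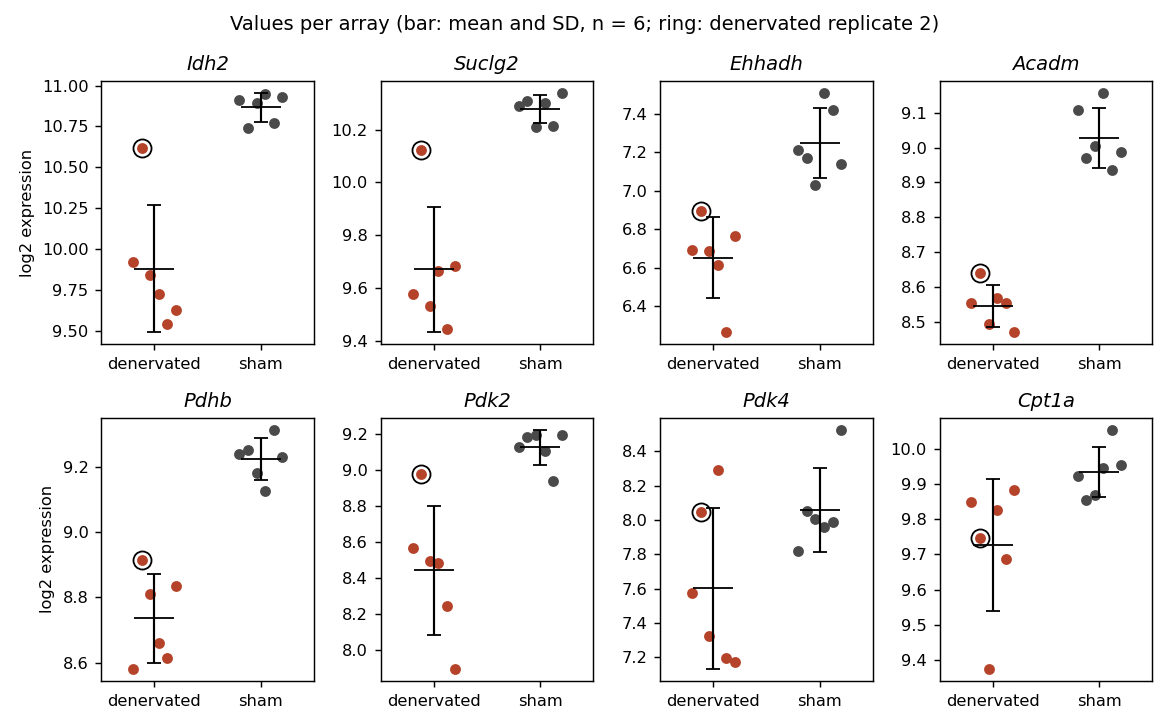
Log2 expression of 8 enzyme genes on each of the 12 arrays, with the mean and SD of each group (n = 6) and a ring around denervated replicate 2. For Idh2, Suclg2, Ehhadh, Acadm and Pdhb all denervated values lie below all sham values, whereas the groups overlap for Pdk2, Pdk4 and Cpt1a.

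Of the 6 genes of the pyruvate dehydrogenase complex and its kinases 3 were called lower (50%, against 16.9% of all genes). Pdha1, the α-subunit of the decarboxylase and the target of the kinases, had values of 10.81, 10.86 and 10.99 in denervated bladders, against 11.21, 11.28 and 11.35 in sham bladders. It fell by 24.0% without overlap (-0.40 ± 0.05, adjusted p = 0.000204). Pdhb, the β-subunit of the same enzyme, had 8.58, 8.73 and 8.92 in denervated bladders, against 9.13, 9.24 and 9.32 in sham bladders, and fell by 28.8% without overlap (-0.49 ± 0.07, adjusted p = 0.000323). Dlat, the acetyltransferase core, was not called at -0.13 (adjusted p = 0.0930, interval -0.25 to -0.01), and was called by the exact rank-sum test (0.0387) and with array weights (-0.15, 0.0289).

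The kinases, which inhibit the complex, differed among themselves. Pdk2 had 7.89, 8.49 and 8.98 in denervated bladders, against 8.94, 9.16 and 9.20 in sham bladders. Denervated replicate 2, at 8.98, was above the lowest sham value and the other 5 lay at 7.89 to 8.57. Pdk2 fell by 37.7% (-0.68 ± 0.14, adjusted p = 0.00277). Pdk4, which is induced by fasting and fatty acids in other tissues, varied most between arrays among the 38, with 7.17, 7.45 and 8.29 in denervated bladders, against 7.82, 8.00 and 8.53 in sham bladders. It was not called at -0.46 ± 0.19 (adjusted p = 0.0943). Without denervated replicate 4, which had the value of 8.29, it was called at -0.60 (adjusted p = 0.0197), and without denervated replicate 2 at -0.55 (0.0423). Pdk1 was not called at -0.03 (interval -0.18 to 0.11).

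Partner genes of the same enzyme could be set against each other within each array, because the difference of their log2 values cancels whatever shifts a whole array. The 38 genes gave 19 pairs of subunits or isoforms, which were compared by an exact two-sided permutation test over the 924 splits of the 12 arrays, adjusted over the 19 pairs. The pairs were set after the values had been seen, and the smallest p the design allows is 0.00216. For 10 pairs the adjusted exact p was under 0.05, and 5 of these kept it when any 1 array was left out. Pdk2 fell relative to Pdk1 (-0.65 ± 0.14, adjusted exact p = 0.00823). Idh3b fell relative to Idh3a (-0.35 ± 0.09, adjusted exact p = 0.00823). Pdhb (-0.36 ± 0.06) and Pdha1 (-0.26 ± 0.04) both fell relative to Dlat (adjusted exact p = 0.00823 for each). Hadhb fell relative to Hadha (-0.22 ± 0.04, adjusted exact p = 0.00823). Their promoter windows, printed above, share 200 bases, and any bearing of this on the difference was not tested.

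The other 5 pairs with an adjusted exact p under 0.05 lost it without some arrays. Suclg2 against Sucla2 (-0.30 ± 0.10, adjusted exact p = 0.0274) lost it without sham replicate 1, 2 or 4 (0.0503 to 0.0576). Suclg2 against Suclg1 (-0.25 ± 0.07, adjusted exact p = 0.0308) lost it on leaving out 1 of 5 arrays, sham 1 and 2 and denervated 1, 3 and 5 (0.0503 to 0.0576). Dld against Dlst (-0.23 ± 0.07, adjusted exact p = 0.0308) lost it on leaving out sham 1 or 2, or denervated 1 or 5 (0.0503 to 0.0576). Dld against Ogdh (-0.35 ± 0.11, adjusted exact p = 0.0370) lost it on leaving out sham 1, 2, 4 or 5, or denervated 1, 3 or 5 (0.0503 to 0.0617). Idh3g against Idh3a (-0.21 ± 0.08, adjusted exact p = 0.0370) lost it on leaving out sham 1, 2, 3, 4 or 5, or denervated 3, 4, 5 or 6 (0.0503 to 0.0781). Such differences show unequal change of the array signals of 2 probe sets.

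For the remaining 9 pairs the adjusted exact p was 0.05 or above with all arrays. They include Etfa against Etfb (-0.02 ± 0.08), Suclg1 against Sucla2 (-0.05 ± 0.07) and Cpt1b against Cpt1a (-0.06 ± 0.11). The differences of Idh3b against Idh3g (-0.14 ± 0.05, adjusted exact p = 0.0561) and Mdh1 against Mdh2 (-0.11 ± 0.05, adjusted exact p = 0.0720) were near the threshold, and fell under it without denervated replicate 2 (adjusted exact p of 0.0228 and 0.0446). Idh3b against Idh3g also did so without sham replicate 5 (0.0411). Dlst against Ogdh (-0.12 ± 0.07) did so without denervated replicate 6 (adjusted exact p = 0.0452), and Pdk4 against Pdk1 (-0.42 ± 0.22) without denervated replicate 4 (0.0452). The other 2 were Pdhb against Pdha1 (-0.09 ± 0.05) and Pdk2 against Pdk4 (-0.23 ± 0.17).

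**Figure D3:**
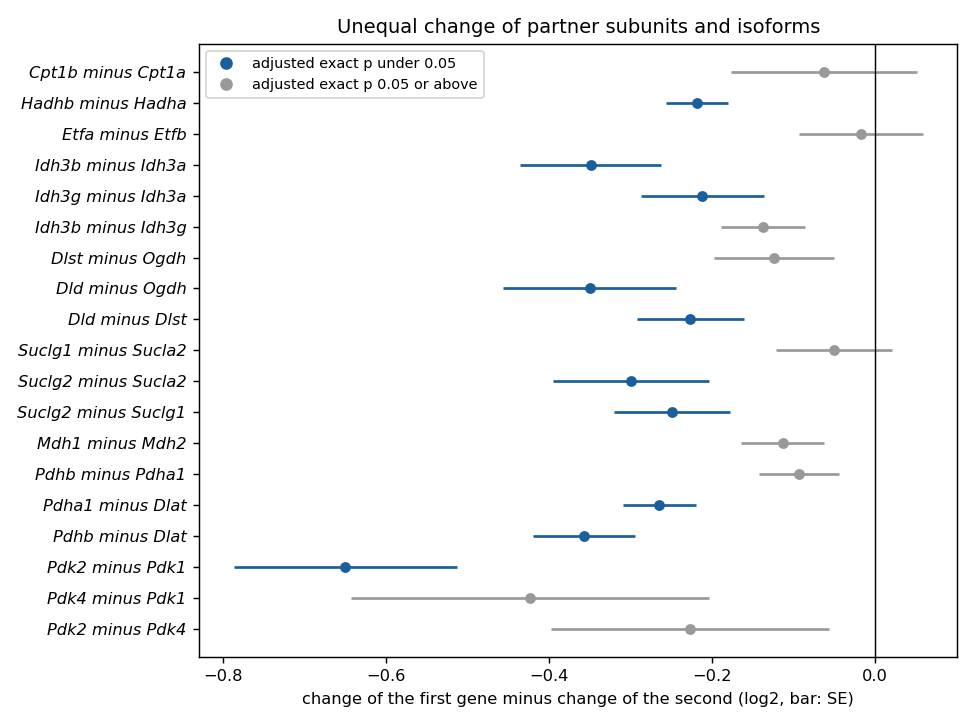
Difference in denervated minus sham change between 19 pairs of partner genes on the log2 scale, with its SE as a bar. In each pair the gene with the larger change is named first, so every point lies below 0 by construction, and the 10 pairs with an adjusted exact p under 0.05 are blue.

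By array, the mean over the 38 genes lay 0.17 to 0.36 below the sham mean in the denervated bladders, and between -0.03 and 0.02 in the sham bladders. Denervated replicate 2 was the least changed, at -0.17, against -0.36 to -0.27 in the other 5, and it was the highest denervated array for 18 of the 25 called genes. Its mean was -0.17 over the citrate cycle genes, with the other 5 at -0.42 to -0.33, and -0.12 over the pyruvate dehydrogenase genes, with the other 5 at -0.53 to -0.28. Over all fatty acid oxidation genes it was -0.18, within the -0.30 to -0.17 of the others. By step it was also less changed than the other 5 for the carnitine shuttle (-0.09, the others -0.32 to -0.11). The same held for hydration to thiolysis (-0.20, the others -0.43 to -0.24). Denervated replicate 2 lay among the other 5 for the acyl-CoA dehydrogenases (-0.212, the others -0.367 to -0.211). It did so for the unsaturated fatty acid auxiliaries (-0.09, the others -0.14 to 0.04). It did so too for the electron transfer flavoprotein (-0.26, the others -0.34 to -0.17) and the malate dehydrogenases (-0.23, the others -0.35 to -0.18). Denervated values varied more than sham values for 30 of the 38 genes, with median SDs of 0.12 in denervated and 0.07 in sham bladders. This was not particular to the 38. Over all genes tested the median correlation between arrays was 0.986 among denervated and 0.994 among sham arrays.

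Genes of the same pathways that are not among the 38 were also more often lower than higher. So were all genes tested, with 16.9% called lower and 11.9% higher, and 25.9% lower among those above the median gene. The lists below, like the 38 genes, were chosen with earlier results of these data known. Of 29 measured other genes of fatty acid oxidation 15 were called lower (51.7%) and 1 higher, with a median of -0.24. The largest changes were those of Acadsb, an acyl-CoA dehydrogenase of branched-chain amino acid breakdown (-1.02 ± 0.18, adjusted p = 0.00122), the acyl-CoA thioesterase Acot13 (-0.60), the peroxisomal fatty acid transporter Abcd2 (-0.57) and the acyl-CoA synthetase Acsl3 (-0.50). Slc25a20, the carrier that exchanges acylcarnitine for carnitine between Cpt1 and Cpt2, stood at -0.08 (adjusted p = 0.279) and the acyl-CoA synthetase Acsl1 at -0.26 (adjusted p = 0.175), and neither was called with all arrays. Without denervated replicate 1 Acsl1 was called (-0.37, adjusted p = 0.0240). For Acadsb the groups overlapped, with denervated replicate 2 (8.43) above the lowest sham value (8.30).

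Of 24 measured other genes of the citrate cycle and pyruvate metabolism 14 were called lower (58.3%) and 2 higher, with a median of -0.23. Sdha, the flavoprotein of succinate dehydrogenase, fell by 27.8% (-0.47 ± 0.08, adjusted p = 0.00124). Lipt1, which attaches the lipoyl groups that Dlst and Dlat need, fell by 0.57 on the log2 scale, and the mitochondrial malic enzyme Me3, a dim gene, by 0.51. Pdp2, a phosphatase that switches the pyruvate dehydrogenase complex on, had 6.85, 7.15 and 7.62 (lowest, median and highest) in denervated bladders, against 7.71, 7.84 and 8.03 in sham bladders, and fell by 37.0% (-0.67 ± 0.11, adjusted p = 0.000704). Pdk3, a further kinase of the complex, went the other way from Pdk2, with 8.34, 8.68 and 8.75 in denervated bladders, against 8.13, 8.19 and 8.29 in sham bladders. It rose by 0.44 ± 0.07 (adjusted p = 0.000858) without overlap. Mpc1, a subunit of the mitochondrial pyruvate carrier, fell by 0.22 on the log2 scale ( adjusted p = 0.0267), and its call was lost without denervated replicate 1, 4 or 5 or sham replicate 2 or 5 (adjusted p of 0.0510 to 0.0631) and with the exact rank-sum test (0.116). Of 4 ketone body genes measured 2 were called lower, the thiolase Acat1 (-0.46) and the ketone-using transferase Oxct1 (-0.25).

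Among 23 regulators of oxidative metabolism 8 were called lower (34.8%, against 16.9% of all genes) and 0 higher, with a median of -0.19. Ppargc1a, the transcriptional coactivator of mitochondrial and fatty acid oxidation genes known as PGC-1α, had the largest change on the list. It stood at 5.12, 5.26 and 6.11 in denervated bladders, against 6.93, 7.05 and 7.14 in sham bladders. The groups did not overlap, replicate 2 was again the highest denervated array at 6.11, and Ppargc1a fell by 68.1% (-1.65 ± 0.14, adjusted p = 2.78e-05). All its denervated values were below the median gene of 6.84. Its relative Ppargc1b fell by 36.0% (-0.64 ± 0.15, adjusted p = 0.00720), and was not called by the exact rank-sum test (0.158). Its value in denervated replicate 2, 7.323, was above the highest sham value of 7.319, and the other 5 stood at 6.18 to 6.50. Ppara, the fatty acid-sensing nuclear receptor, fell by 35.8% (-0.64 ± 0.14, adjusted p = 0.00474), Pparg by 33.9% (-0.60 ± 0.10, adjusted p = 0.000744) and their partner Rxrg by 52.8% (-1.08 ± 0.18, adjusted p = 0.000779). For Ppara denervated replicate 2, at 8.76, lay above the lowest sham value of 8.62. Ppard stood at -0.19 (adjusted p = 0.0825), Esrrg at -0.16 (0.222) and the dim Esrra at 0.02 (0.850), and none of these was called. Ppard was called when the probe sets of a gene were averaged (-0.15, adjusted p = 0.0377). The sign of Esrra turned with quantile normalization (-0.028) and with median centring (-0.0035).

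The respiratory chain and ATP synthase, to which these pathways pass their electrons, had 38 of 58 measured genes called lower (65.5%) and 1 higher, with a median of -0.25. The Ndufs4 (-0.82), Ndufv3 (-0.57), Ndufs7 (-0.52) and Ndufs1 (-0.51) subunits of complex I had the largest falls. Glycolysis and lactate genes were divided, with 7 of 17 measured genes called lower (41.2%) and 8 higher and a median of 0.04. The insulin-responsive glucose transporter Slc2a4 (-1.38), the muscle enolase Eno3 (-1.07) and the heart-type lactate dehydrogenase Ldhb (-0.84) fell, and hexokinase Hk3, which is known from myeloid cells, rose by 1.05. Of 11 measured genes of fatty acid synthesis 7 were called lower (63.6%) and 0 higher. Scd, which makes monounsaturated fatty acids, fell by 3.01, Thrsp by 1.87, the elongase Elovl6 by 0.50 and the acyltransferase Gpam by 0.46. Of 14 measured genes of fatty acid uptake, storage and lipolysis 3 were called lower and 2 higher. That share called lower, 21.4%, was near the 16.9% of all genes and the 25.9% of those above the median gene. The lipid droplet protein Plin2 rose by 0.89 and Gpihbp1, which holds lipoprotein lipase on capillary endothelium, by 0.86. The lipase Pnpla2 fell by 0.43, and the fatty acid-binding protein Fabp4 was called at -0.40 (adjusted p = 0.0455). The call of Fabp4 was lost without denervated replicate 2, 3 or 6 or sham replicate 1, 3, 4, 5 or 6 (adjusted p of 0.0502 to 0.0961), with array weights (0.0727) and with the exact rank-sum test (0.116).

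**Figure D4:**
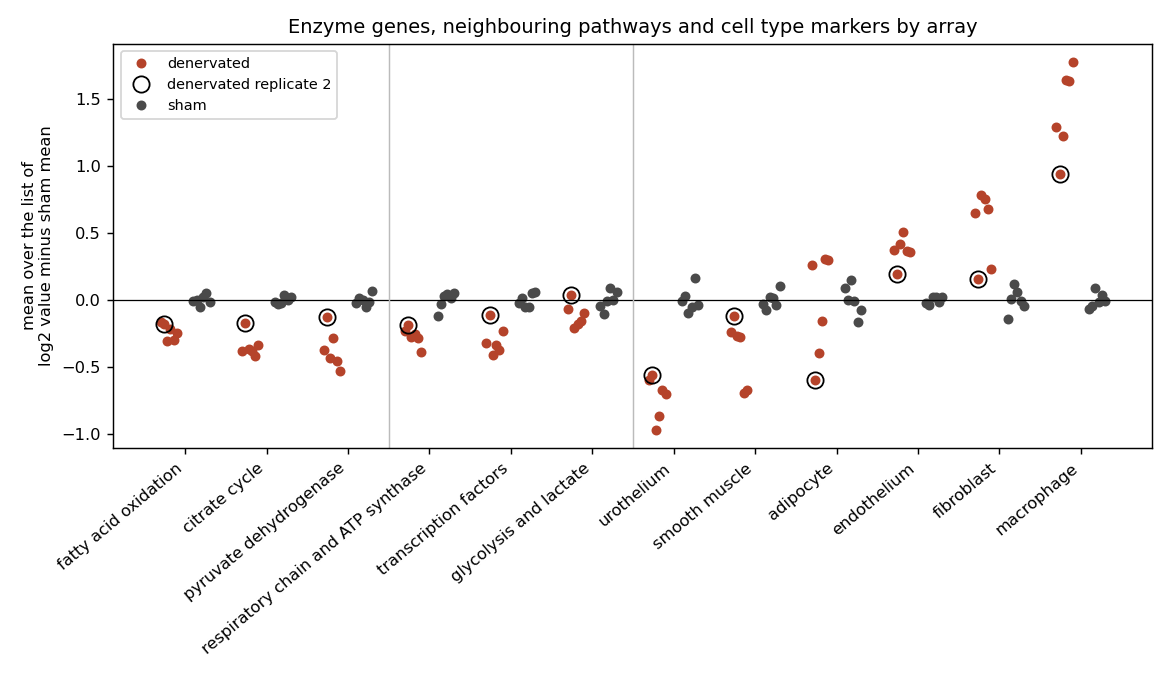
Mean over each list of the log2 value minus the sham mean, for each denervated (left) and sham (right) array, with a ring around denervated replicate 2. The fatty acid oxidation, citrate cycle and pyruvate dehydrogenase genes lie between -0.53 and -0.12 in denervated arrays, while urothelial markers lie between -0.96 and -0.55 and macrophage markers between 0.94 and 1.77.

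Markers of cell types moved in the same arrays. Beside the counts below, 16.9% of all genes tested were called lower and 11.9% higher. All 9 measured urothelial markers were called lower, with a summed level (linear scale, arbitrary units) of 18431 to 23072 in denervated arrays and 29900 to 34114 in sham arrays. Of 8 smooth muscle markers 5, with Myh11 (-0.51) among them, were called lower and 1, Smtn (0.51), higher. Actg2 (-0.01) and Des (-0.10) were not called. The sums of the 8 were 30020 to 37597 in denervated and 38760 to 43413 in sham arrays. All 10 macrophage markers were called higher, with sums of 10275 to 18498 in denervated and 4778 to 5067 in sham arrays. Of 8 fibroblast markers 5 were called higher and 0 lower (sums of 34109 to 44927 in denervated and 28979 to 34262 in sham arrays), and of 6 endothelial markers 3 were called higher and 0 lower (2541 to 3198 in denervated and 2063 to 2171 in sham arrays). Of 8 cell cycle genes 7 were called higher and 0 lower (998 to 3174 in denervated and 823 to 1687 in sham arrays). The part of these shifts in the falls of the enzyme genes was not tested.

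Markers of white adipocytes, which lie around the bladder, gave no common direction. Of 10 adipocyte markers 3 were called lower and 1 higher, with sums of 2977 to 5399 in denervated arrays, around the 4294 to 4983 of sham arrays, and with adiponectin (Adipoq) not called (-0.24, adjusted p = 0.793). The sums weigh most on the brightest of the 10, Fabp4 and Pparg, with sham means of 11.18 and 10.05 on the log2 scale. By array the mean log2 deviation over the 10 markers ran from -0.59 in denervated replicate 2 to 0.30 in denervated replicate 5. The part of these markers in the result was not tested. Of 4 brown adipocyte markers 1 was called lower (Cidea, -0.80; sums of 201 to 313 in denervated and 297 to 444 in sham arrays), and Ucp1, the defining one, was dim in both groups, with medians of 4.02 in denervated and 3.91 in sham arrays. Of 5 measured striated muscle markers 1 was called lower and 1 higher (1051 to 2422 in denervated and 978 to 1500 in sham arrays). The table holds no detection calls and no value at 0.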

How the data were processed

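Whole urinary bladder was measured on 1 array per sample, 6 denervated and 6 sham, grouped by sample title. The authors deposited log2 expression values for 36685 probe sets, made by RMA in Affymetrix Expression Console 1.4.1.46, per the submitters' processing notes. Their genome build is not given in the sources used here. RMA equalises the arrays, so a change common to all genes cannot be seen. Precision is limited by the number of arrays.

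Probe sets with 1 gene in the platform table (18511 of 19086 named; 575 carry several genes and 17599 none) gave 18166 genes, with the highest-mean probe set for the 291 genes that have several. Of the 18511, 18394 matched a RefSeq gene table of GRCr8 by identifier, used for names only, and 0 symbols changed. Denervated minus sham was tested with limma 3.58.1 in R 4.3.3 (lmFit, eBayes, two-sided) on the values as deposited, Benjamini-Hochberg adjusted over all genes at 0.05, and the script was checked on simulated data. Every adjusted p is from limma unless named otherwise.

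Members and lists were chosen with earlier results of these data known. Every member is named, as are up to 4 called genes with the largest change per pathway list and a short set of regulators and enzymes whatever their result. Some genes of that set are not reported here. Cell type markers were named as examples after their values were seen. Alternatives were quantile normalization, median centring, dropping the dimmest 25% of genes, array weights, a trended and robust eBayes, averaged probe sets, an exact rank-sum test, treat, a replicate block and the omission of each array in turn. Deviations of same-numbered samples correlated between -0.11 and 0.10, which showed no pairing by replicate number but cannot exclude one.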

Additional observations from a re-analysis of the deposited data

Results flagged for a closer look

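The 38 enzyme genes and the other genes named from the pathway lists, 76 in all, were examined for a value standing far from the other 5 of its group (Dixon's test at the 95% level). Of 152 groups 16 held such a value, and chance alone gives about 1 in 20.

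Denervated replicate 2 accounted for 9 of the 16. It stood at 10.62 for Idh2, against 9.54 to 9.92 in the other 5 denervated arrays, at 10.12 for Suclg2 (9.44 to 9.68), at 10.99 for Pdha1 (10.81 to 10.87) and at 6.37 for Cpt1b (5.90 to 6.07). For the regulators it stood at 6.11 for Ppargc1a (5.12 to 5.45), 7.32 for Ppargc1b (6.18 to 6.50) and 5.86 for Rxrg (4.61 to 5.03). It was also high for Ndufs4, at 10.04 (9.15 to 9.39), and low for Pdk3, at 8.34 (8.60 to 8.75), which rose after denervation. In all 9 its value lay on the side of the sham arrays.

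The other 7 were spread over arrays. Among denervated arrays Me3 stood at 5.26 in replicate 1 (4.84 to 4.96 in the other 5), Pnpla2 at 9.80 in replicate 3 (10.12 to 10.29), Esrrg at 5.91 in replicate 4 (5.55 to 5.66) and Mpc1 at 7.61 in replicate 6 (7.27 to 7.37). Among sham arrays Pdk2 stood at 8.94 (9.11 to 9.20 in the other 5) and Abcd2 at 6.36 (6.59 to 6.71), both in replicate 5, and Pdk4 at 8.53 in replicate 6 (7.82 to 8.05).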

How the results depend on the processing

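The count of 25 enzyme genes called lower ranged from 22 to 27 when 1 array was left out, the count of those called higher stayed at 0, and the median change ran from -0.30 to -0.26. Over all genes 2543 to 3661 were called lower in these fits. Of the 19 fatty acid oxidation genes 10 to 12 were called lower, of the 13 citrate cycle genes 9 to 11, and of the 6 pyruvate dehydrogenase genes 3 to 4. Across 19 alternatives other than treat and the replicate block, 22 of the 25 genes kept their call in each, and Cpt1b, Dlst and Mdh2 did not. The test against a 1.2-fold change, which asks for more, called 4 members lower, 1 of fatty acid oxidation, 2 of the citrate cycle and 1 of the pyruvate dehydrogenase group, and 496 of all genes lower, against 3063 called lower for any change (1252 and 5216 called in either direction). With the replicate number as a block 20 members were called lower, and Cpt1b, Etfb, Cs, Dlst and Mdh2 were not (adjusted p of 0.0661 to 0.115). Over all genes 2476 were called lower with this block, against 3063 without it. The correlations showed no pairing by replicate number but cannot exclude one. Of the 6 denervated arrays 1 correlated best with the sham array of its number. Among genes that were not called, Acads turned to 0.011 with array weights and ran from -0.063 to 0.021 when 1 array was left out, and Esrra turned to -0.028 with quantile normalization and -0.0035 with median centring and ran from -0.018 to 0.036. The difference of Etfa and Etfb, also not called, ran from -0.062 to 0.029. The cause was not tested. Leaving out arrays for the pairs was added after seeing the data. Without detection calls, the signal over background of dim genes such as Cpt1b is unknown.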
